A study of Mus musculus with 167 samples.

Results

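miR-21a is a single mouse microRNA gene whose hairpin is cut into 2 mature strands, mmu-miR-21a-5p and mmu-miR-21a-3p (miR-21a-5p and miR-21a-3p from here on), and both strands were followed here. The members were chosen by name, as the rows of these 2 strands among the 1915 mature miRNAs listed in each count table. The tables came from small RNA sequencing of lung, heart, brain, white blood cells (WBC) and red blood cells (RBC) of mice that received whole thorax lung irradiation (WTLI) and of sham-treated mice, a design that addresses late lung and heart injury after thoracic exposure. C3H mice (C3Hf/Sed/Kam) were sampled at month 4, when this strain is known for pneumonitis, and C57 mice (C57Bl/6) at month 6, when it is known for lung fibrosis. The C3H animals were all female, with 8 sham and 7 irradiated animals. Of the C57 animals, 15 were sham (8 male and 7 female) and 5 were irradiated (4 male and 1 female). For WBC, 5 sham and 6 irradiated C3H libraries and 11 sham and 5 irradiated C57 libraries were present, so that 167 libraries were analysed. Strain, month and, in part, sex cannot be told apart, and the irradiated animals were those alive at the sampling month. The groups carried no transgene or deletion, and each library came from 1 animal.

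A microRNA hairpin is processed so that usually 1 strand is loaded into the Argonaute protein and guides it to messenger RNAs, mainly through the seed at bases 2 to 8, while the other strand is mostly degraded. miR-21 is among the most abundant miRNAs of many tissues. It is known to rise in inflamed and fibrotic tissue, in fibroblasts and myeloid cells among others. The 2 strands carry different seeds, which are shown in capitals because a change in the balance of strands would change which messenger RNAs could be paired. The sequences are those of RefSeq on GRCm38.p6, 5′ to 3′.
miR-21a-5p: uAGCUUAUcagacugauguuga
miR-21a-3p: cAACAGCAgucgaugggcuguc
miR-21c: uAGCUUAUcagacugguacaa
miR-21b: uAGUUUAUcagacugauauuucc
Each strand of miR-21a is 22 bases long. The 5p strand lies at chr11:86584120-86584141 and the 3p strand at chr11:86584082-86584103, both on the minus strand. Their hairpin, chr11:86584067-86584158, lies in the last exon of the protein-coding gene Vmp1, within the 3′ untranslated region of its transcript Vmp1-201 on the same strand. miR-21c is printed because it shares the seed of miR-21a-5p, and miR-21b because it differs from that seed by C4U, counted from 1 at the 5′ end of miR-21a-5p. Neither miR-21b, miR-21c nor miR-590-5p had a single count in any of the 167 libraries. A count of 0 over the libraries of a tissue allows at most 3 counts, or 0.0241 CPM (the count scaled to the library total) in lung and 0.0295 CPM in brain.

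Total counts per library ran from 1794995 to 7865102. The cardiac muscle and neuronal markers followed the labels of the solid organs. The summed level of 4 cardiac muscle miRNAs was 50690 to 298863 CPM in heart against 2569 to 8560 CPM in lung. That of 3 neuronal miRNAs was 104654 to 153724 CPM in brain against 56.6 to 557 CPM in lung. Other lists were less clean. The sum of 5 epithelial miRNAs was 97.6 to 41037 CPM in brain (median 973) and 8381 to 37452 CPM in lung. That of 5 leukocyte miRNAs reached 10253 CPM in heart (median 1672) and 9748 CPM in lung. The 2 blood fractions were not clean by these markers. The 4 erythrocyte miRNAs summed to 17913 to 106907 CPM in WBC and 28566 to 106323 CPM in RBC, and the 5 leukocyte miRNAs to 10623 to 33447 CPM in WBC and 8203 to 45244 CPM in RBC. Both miR-21a strands passed the filter on low counts in all 5 tissues. In lung, 2 C57 sham libraries, replicates 1 and 4, both male, stood apart. miR-21a-5p was at 202363 and 236828 CPM there, against 24169 to 54069 CPM in the other 13 C57 sham lungs, and the main comparisons of C57 lung are given with and without them. In the same 2 animals miR-21a-5p was at 9422 and 9614 CPM in heart, 10020 and 10660 CPM in brain, 56318 and 71889 CPM in WBC and 26313 and 17976 CPM in RBC. The second of them had the highest C57 sham value in heart and in brain, and neither did in WBC or RBC.

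**Figure D1:**
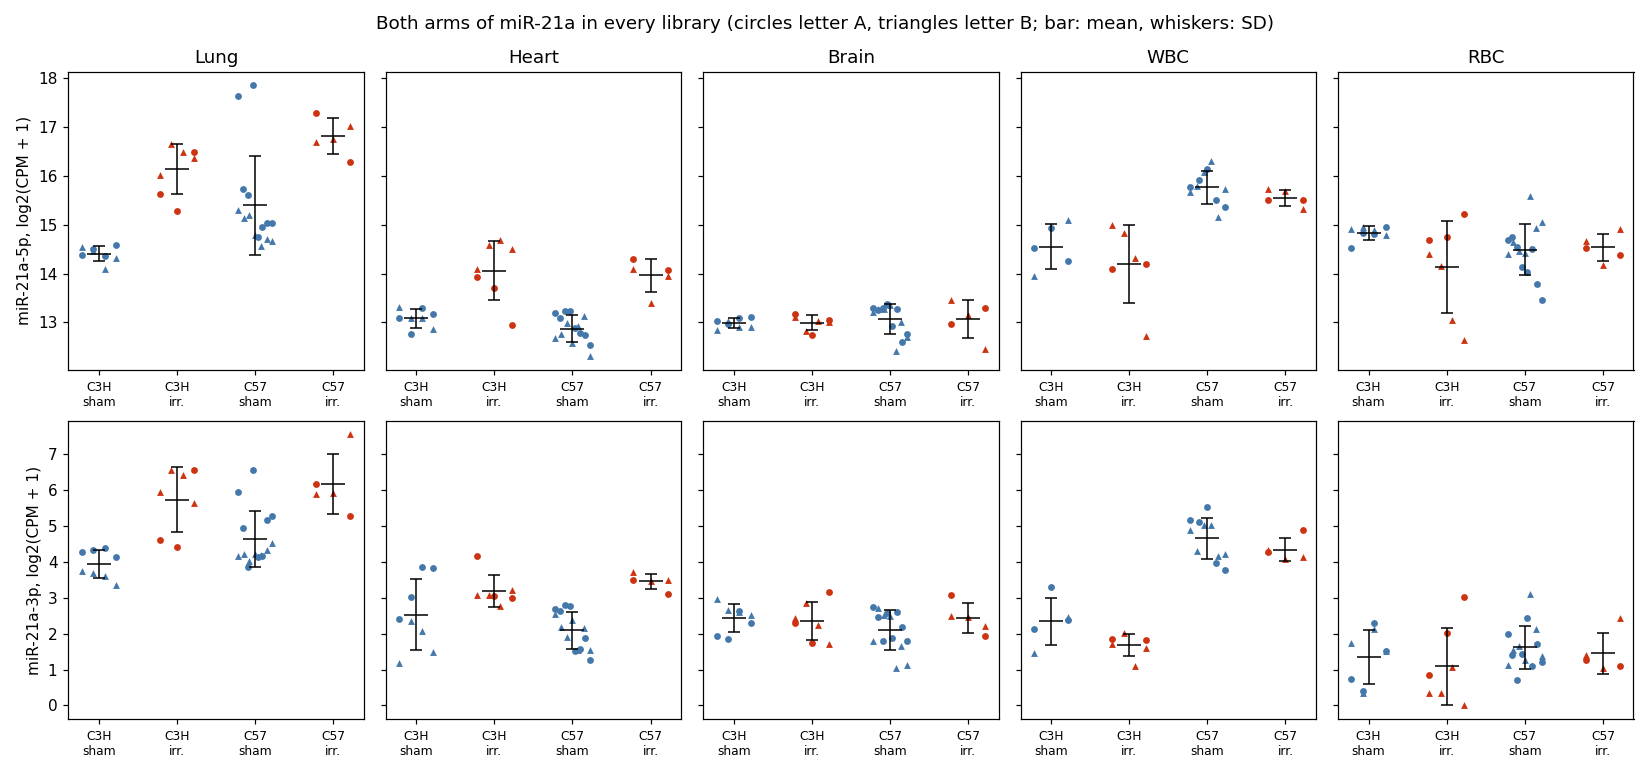
Level of miR-21a-5p (upper row) and miR-21a-3p (lower row) as log2(CPM + 1) in each library of 5 tissues, by strain and irradiation; points are animals, bars the mean and whiskers the SD, and the shapes mark the letter A or B of the sample titles. In lung the irradiated points lie above the sham points except for the 2 C57 sham lungs at 202363 and 236828 CPM of miR-21a-5p. In heart the C57 irradiated points lie above all C57 sham points. Of the 7 C3H irradiated hearts, 6 exceed every C3H sham heart in miR-21a-5p but only 1 does in miR-21a-3p. The groups overlap in brain, WBC and RBC.

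miR-21a-5p and miR-21a-3p were both higher after WTLI in the lung, the organ at the centre of the field, in both strains. In C3H lung, miR-21a-5p rose 2.71-fold (log2 change 1.44 ± 0.35, SE) and miR-21a-3p 2.96-fold (1.56 ± 0.36). In C57 lung, miR-21a-5p rose 2.45-fold (1.29 ± 0.33) and miR-21a-3p 2.71-fold (1.44 ± 0.35). In these bulk samples a higher level per cell and more cells that carry miR-21a cannot be told apart.

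In C3H lung the lowest, median and highest level of miR-21a-5p was 17568, 21837 and 24624 CPM in 8 sham animals and 40028, 84381 and 102700 CPM in 7 irradiated animals. The groups did not overlap. It took 1.76% to 2.46% of all counts in sham lungs and 4.0% to 10.3% in irradiated lungs, and moved from rank 9 to 11 among all miRNAs to rank 2 to 7. The level of miR-21a-3p was 9.32, 14.5 and 19.9 CPM in sham and 20.2, 61.3 and 93.3 CPM in irradiated animals. These groups did not overlap either, although the lowest irradiated animal exceeded the highest sham animal by less than 1 CPM. The adjusted p was 0.00149 for miR-21a-5p and 0.00108 for miR-21a-3p (limma with voom, n = 7 and 8), where 115 of 350 miRNAs tested, or 32.9%, passed in either direction and 15.7% passed as higher.

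In C57 lung the 5 irradiated animals had 159132, 80219, 106188, 111033 and 133696 CPM of miR-21a-5p in the order of their replicate numbers. All 5 lay above the 13 sham animals at 24169 to 54069 CPM and below the remaining 2, so that no irradiated animal exceeded every sham animal. Their miR-21a-3p level was 71.0, 38.1, 57.9, 59.6 and 186 CPM. The 13 sham animals had 13.5 to 37.6 CPM and the 2 that stood apart 61.1 and 93.4 CPM, so that here too all 5 irradiated animals lay above the 13. With all 15 sham animals the adjusted p was 0.00608 for miR-21a-5p and 0.00345 for miR-21a-3p (limma with voom, n = 5 and 15), where 73 of 350 miRNAs, or 20.9%, passed and 12.3% passed as higher. Without sham replicates 1 and 4, a choice made after seeing the data, the log2 change was 1.65 (adjusted p = 1.68e-09) for miR-21a-5p and 1.68 (adjusted p = 3.62e-05) for miR-21a-3p by the same test.

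The C57 call for miR-21a-5p depended on the test and on the sham animals. With all 15 sham animals it was not passed by edgeR's quasi-likelihood test (log2 change 0.88, adjusted p = 0.104), by DESeq2 (0.89, adjusted p = 0.0932) or after quantile normalisation (0.85, adjusted p = 0.136). Among C57 males alone, which include both sham animals that stood apart, the log2 change was 0.79 for miR-21a-5p (adjusted p = 0.255) and 1.04 for miR-21a-3p (adjusted p = 0.155) by limma. The C57 calls for miR-21a-3p with edgeR (1.43, adjusted p = 0.00562) and DESeq2 (1.42, adjusted p = 0.00273) passed, as did both strands in C3H lung.

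**Figure D2:**
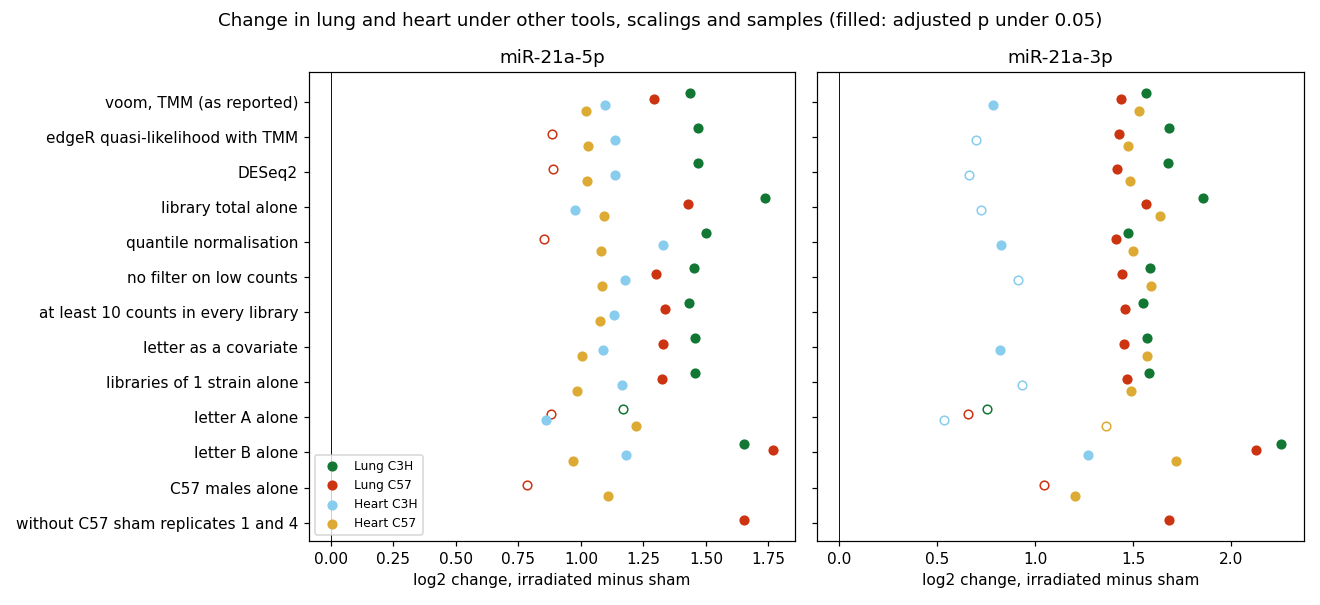
Log2 change of each strand (irradiated minus sham, horizontal axis) in lung and heart of both strains under the reported fit and 12 other settings (vertical axis); filled points passed an adjusted p of 0.05. All values lie above 0. miR-21a-5p in C57 lung ranges from 0.79 among males to 1.77 within letter B.

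The titles carry a letter, A or B, with no stated meaning, and the lung change was examined within each. The share of all miRNAs that passed within a letter was 23.7% (A) and 20.3% (B) in C3H lung and 6% (A) and 14.3% (B) in C57 lung. In C3H lung, miR-21a-5p changed by 1.15 in letter A (adjusted p = 0.0839) and 1.66 in letter B (adjusted p = 0.00893), and miR-21a-3p by 0.74 (adjusted p = 0.272) and 2.26 (adjusted p = 0.000742), on the log2 scale by limma. In C57 lung, miR-21a-5p changed by 0.91 in letter A (adjusted p = 0.315) and 1.73 in letter B (adjusted p = 0.00609), and miR-21a-3p by 0.70 (adjusted p = 0.49) and 2.09 (adjusted p = 0.0013). The change was positive for both strands in all 4 strain and letter sets. Without C57 sham replicates 1 and 4, the change in letter A of C57 lung was 1.51 for miR-21a-5p (adjusted p = 9.78e-05) and 1.08 for miR-21a-3p (adjusted p = 0.0826) by limma, where 14.1% of miRNAs passed, and letter B minus A was 0.26 and 1.05 (adjusted p = 0.81 and 0.679). The same choice also brought miR-21a-5p in letter A of C3H lung past the threshold (1.22, adjusted p = 0.000503), where 31% of miRNAs passed. The reason for this was not tested. With all libraries the difference between letters did not pass in either strain (adjusted p from 0.294 to 0.737 by limma, where 0.857% and 0% of miRNAs passed), and both sham lungs that stood apart carry letter A.

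miR-21a-5p also rose in the heart, which lies in the irradiated field, by 2.14-fold in C3H (log2 change 1.10 ± 0.17, SE) and 2.03-fold in C57 (1.02 ± 0.17). miR-21a-3p rose 1.72-fold in C3H (0.78 ± 0.28) and 2.88-fold in C57 (1.53 ± 0.28), from much lower counts and, in C57, with the sexes unequal between the groups. The heart held less miR-21a than the lung in sham and in irradiated animals.

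In C3H heart the lowest, median and highest level of miR-21a-5p was 6944, 8763 and 10188 CPM in 8 sham animals and 7915, 17365 and 26221 CPM in 7 irradiated animals. Of the 7 irradiated hearts, 6 exceeded every sham heart and replicate 3 did not. In replicate 3 the summed cardiac muscle miRNAs were at 50690 CPM, against 152407 to 246805 CPM in the other 6 irradiated and 216176 to 291001 CPM in the sham C3H hearts. Leaving it out, miR-21a-5p rose by 1.20 on the log2 scale and still passed, miR-21a-3p was at 0.72 and did not (adjusted p = 0.0828, limma), and 36 miRNAs passed in C3H heart in place of 60. The part of the low cardiac sum in these results was not tested. In C57 heart the 15 sham animals had 5051 to 9614 CPM with a median of 7515 CPM, and the irradiated animals 20187, 17150, 17557, 10765 and 15818 CPM. The 2 C57 groups did not overlap. The adjusted p was 5.53e-06 in C3H and 6.67e-05 in C57 (limma with voom, n = 7 and 8, and 5 and 15), against 60 of 312 miRNAs, or 19.2%, passing in C3H heart (10.6% as higher) and 14 of 312, or 4.49%, in C57 heart (3.21% as higher). In C57 heart miR-21a-5p and miR-21a-3p were 2 of the 10 miRNAs called higher.

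The 3p strand was thin in the heart, with 3 to 50 counts per library. In C3H heart its level was 1.27, 4.21 and 13.6 CPM (lowest, median, highest) in sham and 5.86, 7.41 and 16.8 CPM in irradiated animals. The groups overlapped and the adjusted p was 0.0425 by limma. Sham hearts of letter A had 4.31 to 13.6 CPM of miR-21a-3p and those of letter B 1.27 to 4.11 CPM, and the change within letter A was 0.52 on the log2 scale (adjusted p = 0.208) and within letter B 1.32 (adjusted p = 0.0355) by limma, where 28.8% and 5.77% of miRNAs passed. In C57 heart, in the same fit over all letters, both strands passed within both letters, from 0.93 to 1.66, where 2.56% (A) and 2.24% (B) of miRNAs passed. Fitted on the libraries of letter A alone, miR-21a-3p in C57 heart was at 1.36 and did not pass (adjusted p = 0.145, limma). The C3H heart call for miR-21a-3p was also not passed by edgeR (0.70, adjusted p = 0.0828) or DESeq2 (0.66, adjusted p = 0.087), and leaving out any of replicates 1, 3, 4, 5 and 7 of the irradiated hearts lost it (adjusted p from 0.0506 to 0.0828). In C57 heart the sham animals had 1.41, 3.45 and 5.93 CPM (lowest, median, highest) and the irradiated animals 10.2, 7.62, 12.2, 10.1 and 10.2 CPM. These groups did not overlap, and the adjusted p was 0.00032 by limma. Of the 5 irradiated animals 4 were male, and sham C57 hearts had a mean of 4.72 CPM in males and 2.17 CPM in females. Sex is therefore mixed into the size of this change. Under the alternatives run, C57 males alone among them, the log2 change was 1.20 to 1.72.

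**Figure D3:**
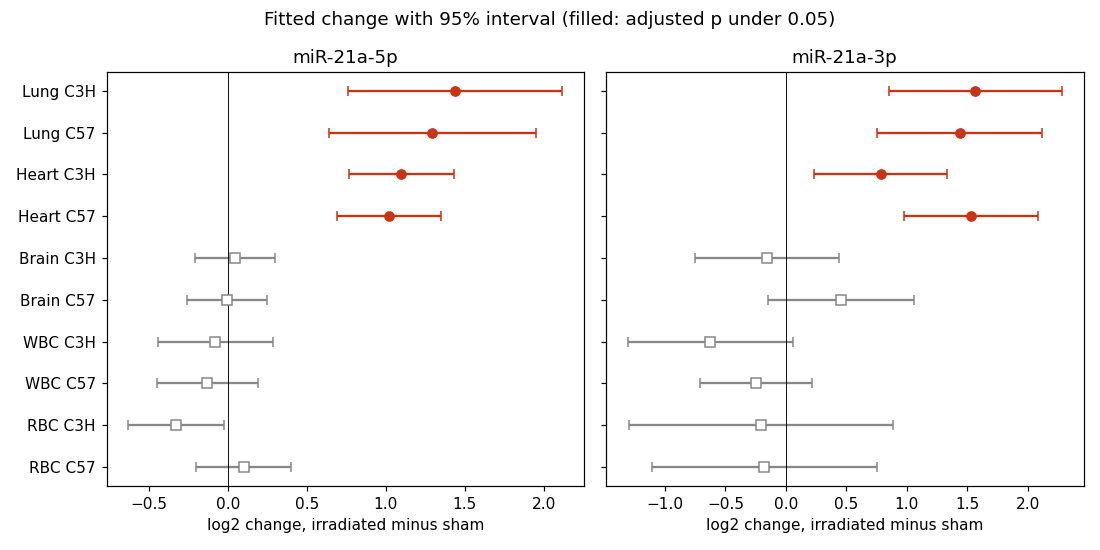
Fitted log2 change (irradiated minus sham, points) with its 95% interval for miR-21a-5p and miR-21a-3p in 5 tissues and 2 strains; filled red points passed an adjusted p of 0.05 by limma. The 4 lung and heart comparisons of each strand lie above 0, from 0.78 to 1.56, and the 6 others include uncalled values on both sides of 0.

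In brain, which lies outside the field, and in WBC and RBC, drawn months after the exposure, neither strand passed in either strain. In brain the log2 change of miR-21a-5p was 0.048 in C3H (95% interval -0.20 to 0.30) and -0.006 in C57 (-0.26 to 0.25). Its level was 7300, 8134 and 8873 CPM (lowest, median, highest) in C3H sham and 6838, 8361 and 9278 CPM in C3H irradiated brain, so the groups overlapped. In C57 brain it was 5418, 9818 and 10660 CPM in sham and 5612 to 11197 CPM in irradiated animals. Both intervals lie below the heart changes of 1.10 and 1.02.

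In WBC the change of miR-21a-5p was -0.078 in C3H (-0.44 to 0.29) and -0.13 in C57 (-0.44 to 0.19). All 5 irradiated C57 libraries, at 40936 to 54451 CPM, lay below the sham median of 56318 CPM but within the sham range of 36822 to 81420 CPM. The 3p strand in WBC lay below the sham median in all 6 irradiated C3H and all 5 irradiated C57 libraries, with a log2 change of -0.62 (-1.31 to 0.059) and -0.25 (-0.71 to 0.22), neither past the threshold (adjusted p = 0.64 and 0.954 by limma). In RBC the change of miR-21a-5p was -0.33 in C3H (-0.63 to -0.026; adjusted p = 0.321 by limma), with levels of 23550 to 31918 CPM in sham and 6375 to 38006 CPM in irradiated animals. Without irradiated replicates 6 and 7, at 8444 and 6375 CPM, it was -0.18 (adjusted p = 0.998). In C57 RBC it was 0.10 (-0.20 to 0.40). The 3p strand had 0 to 28 counts in RBC, and the 95% intervals of its log2 change there were wide, at -1.30 to 0.89 in C3H and -1.11 to 0.75 in C57. The number of miRNAs passing in these 3 tissues was 0 (0%) in both strains by limma. At an unadjusted p under 0.05 it was 7 and 47 of 433 in brain (C3H and C57), 24 and 14 of 291 in WBC, and 32 and 16 of 229 in RBC. edgeR and DESeq2 called 3 and 9 in C57 brain, 12 and 22 in C3H RBC, 1 each in C57 RBC and 0 in the other 3 comparisons. Over both letters, neither strand's sham and irradiated groups were separated in these tissues. In letter B of C3H RBC, miR-21a-5p was at 28337 to 31918 CPM in sham and 6375 to 21532 CPM in irradiated animals (n = 4 each), without overlap. In letter A it was at 23550 to 31873 CPM (n = 4) and 26479 to 38006 CPM (n = 3). In letter A of C3H WBC, 2 irradiated libraries lay below 3 sham libraries in both strands. No alternative run gave a call for either change.

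The change did not differ between strains by the test of the difference itself. C3H minus C57 was 0.15 (95% interval -0.80 to 1.09) for miR-21a-5p and 0.13 (-0.86 to 1.12) for miR-21a-3p in lung, and 0.077 (-0.39 to 0.54) and -0.74 (-1.52 to 0.032) in heart. The adjusted p was 0.927, 0.952, 0.891 and 0.344 by limma, where 0.286% of miRNAs passed in lung and 0% in heart. The intervals leave room for a strain difference of more than 1 log2 unit in lung. Nor did lung minus heart pass within a strain: it was 0.18 and 0.58 (5p and 3p) in C3H, and 0.24 and -0.12 in C57 (adjusted p from 0.497 to 0.956 by limma, where 13.6% of miRNAs passed in C3H and 5.88% in C57). Without C57 sham replicates 1 and 4 the C57 difference for miR-21a-5p was 0.63 (adjusted p = 0.131).

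No change in the ratio of the strands passed in any tissue. The ratio was taken within each library as log2((5p + 0.5)/(3p + 0.5)) of the counts, and so needs no scaling between libraries. In lung the median count of miR-21a-5p per miR-21a-3p read was 1538 in C3H sham, 1106 in C3H irradiated, 1817 in C57 sham and 1864 in C57 irradiated animals. The mean log2 ratio was 10.5 ± 0.38 (SD, n = 8) in sham and 10.4 ± 0.47 (n = 7) in irradiated C3H lung, a difference of -0.12 (exact permutation test, two-sided, p = 0.577, adjusted p = 0.835 over 10 comparisons). In C57 lung it was 10.8 ± 0.60 (n = 15) and 10.7 ± 0.67 (n = 5), a difference of -0.14 (exact p = 0.676, adjusted p = 0.835). Without C57 sham replicates 1 and 4 the C57 difference was -0.029 (exact permutation test, adjusted p = 0.933).

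The lowest exact p among the 10 comparisons was in C57 heart, where all 5 irradiated libraries lay below the sham median and the mean differed by -0.50 (exact p = 0.0783, adjusted p = 0.691). Of those 5 animals 4 were male, and sham hearts had a mean log2 ratio of 10.7 in males and 11.6 in females. Among C57 males alone the difference was -0.081 (exact permutation test, adjusted p = 0.835), and among libraries with at least 10 counts of miR-21a-3p it was -0.078 (adjusted p = 0.881). None of the 10 passed after adjustment or at an unadjusted exact p under 0.05. As background, 24 of 86 hairpins with both strands tested, or 27.9%, had an exact p under 0.05 in C3H lung, 6 of 86 (6.98%) in C57 lung, 9 of 74 (12.2%) in C3H heart and 6 of 74 (8.11%) in C57 heart. In C3H and C57 the share was 2.5% and 11.7% in brain, 4.92% and 3.28% in WBC, and 11.1% and 0% in RBC. miR-21a had the highest median 5p to 3p ratio in sham libraries among those hairpins in every tissue and strain except C3H lung, where it was second. Within C3H lung the 2 letters went opposite ways, by 0.41 in A and -0.60 in B (exact permutation test, adjusted p = 0.833 and 0.389), and in sham libraries the ratio was 10.2 ± 0.21 (n = 4) in A and 10.9 ± 0.19 (n = 4) in B.

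**Figure D4:**
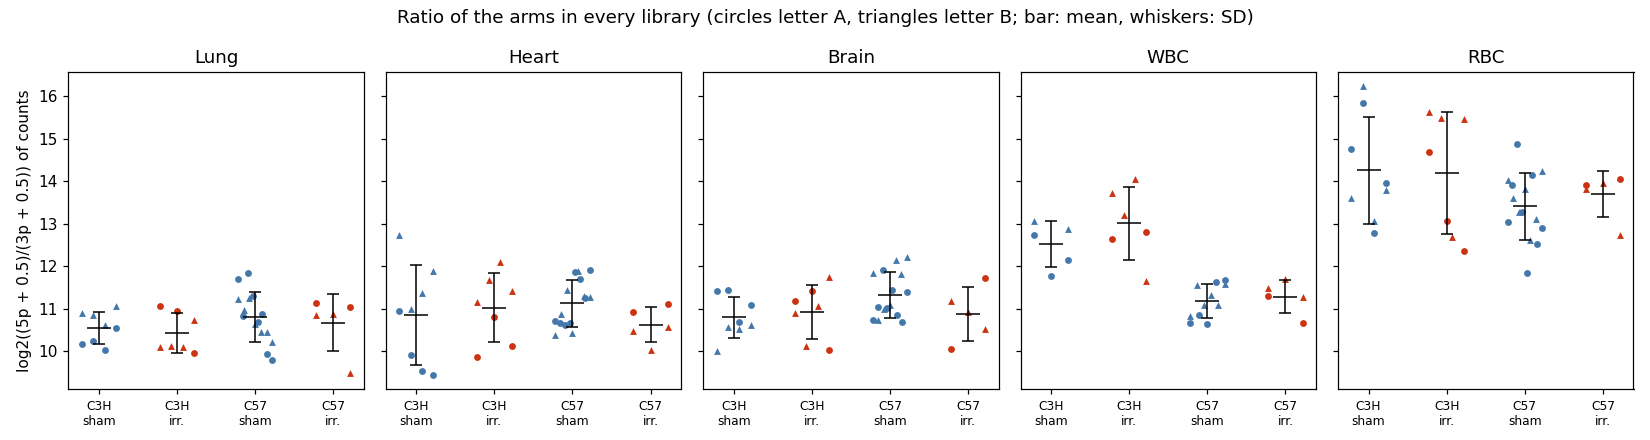
Log2 ratio of miR-21a-5p to miR-21a-3p counts in each library (vertical axis) by tissue, strain and irradiation; bars are means and whiskers SDs, and the shapes mark the letter. Irradiated and sham groups overlap in each tissue, and the means of the RBC and C3H WBC groups lie above those of the lung, heart and brain groups, while single libraries overlap.

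In sham animals the 5p strand was most abundant in lung and the blood fractions and lowest in heart and brain, in both strains. In C3H the mean was 29393 CPM in RBC, 25067 CPM in WBC, 21810 CPM in lung, 8761 CPM in heart and 8120 CPM in brain. Only lung and heart were neighbours in that order that differed, by 1.32 on the log2(CPM + 1) scale with lung higher in 8 of 8 animals (exact sign-flip permutation test within animals, p = 0.00781, the smallest the design gives, adjusted p = 0.0313 over 24 comparisons). Comparisons with C3H WBC had 5 animals and could not go below 0.0625. In C57 the order on the log2 scale was WBC, lung, RBC, brain and heart. Lung exceeded RBC by 0.91 in 12 of 15 animals (exact permutation p = 0.00598, adjusted p = 0.0313) and RBC exceeded brain by 1.42 in 15 of 15 (exact permutation p = 6.1e-05, adjusted p = 0.000488). WBC and lung, and brain and heart, were not separated. Without the 2 animals whose lungs stood apart, WBC exceeded lung by 0.71 in 9 of 9 animals (exact permutation p = 0.00391, adjusted p = 0.0234), and lung exceeded RBC by 0.53 in 10 of 13 (exact permutation p = 0.0239, adjusted p = 0.082), which no longer passed.

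The 3p strand was highest in C3H lung and in C57 WBC and lung. In C3H, lung exceeded heart by 1.42 on the log2 scale in 8 of 8 animals (exact permutation p = 0.00781, adjusted p = 0.0313). In C57, lung exceeded brain by 2.56 in 15 of 15 (exact permutation p = 6.1e-05, adjusted p = 0.000488). The log2 ratio of the strands was highest in RBC, at 14.3 ± 1.25 (SD, n = 8) in C3H and 13.4 ± 0.79 (n = 15) in C57, where it exceeded brain by 2.09 in 15 of 15 animals (exact permutation p = 6.1e-05, adjusted p = 0.000488). Each tissue had its own count table, so tissue and table cannot be told apart.

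Among sham females the strains differed in the 3p strand in heart, brain and WBC. C57 minus C3H was -0.84 in heart (adjusted p = 0.0438), -0.94 in brain (adjusted p = 0.0375) and 1.30 in WBC (adjusted p = 0.00459) by limma, where 39.4%, 13.2% and 22.3% of all miRNAs tested passed. The heart call was lost after quantile normalisation (-0.62, adjusted p = 0.0976). C3H sham hearts had 4.31 to 13.6 CPM of the 3p strand in letter A and 1.27 to 4.11 CPM in letter B. C57 sham female hearts had 1.41 to 3.45 CPM, which overlapped letter B but not letter A. In lung and RBC C57 minus C3H was 0.60 (adjusted p = 0.267) and 0.88 (adjusted p = 0.194), where 15.7% and 21.4% passed. C3H sham WBC held 1.75 to 8.78 CPM of miR-21a-3p and C57 sham female WBC 12.7 to 17.8 CPM, with no overlap. For miR-21a-5p the difference between strains passed in no tissue by limma, from -0.33 in RBC to 0.39 in lung. In WBC it became 0.89 (adjusted p = 0.0237) when libraries were scaled by their totals alone.

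Between C57 sham males and females, miR-21a-5p was higher in male lung by 1.07 (adjusted p = 0.0285) and in male brain by 0.39 (adjusted p = 0.00445), where 8.29% and 19.4% of miRNAs passed by limma. No other sex difference of either strand passed, in comparisons where 45.5% (heart), 6.53% (WBC) and 24.5% (RBC) did. The lung call was lost without replicates 1 and 4 (0.48, adjusted p = 0.0962). In brain the 8 males had 9470 to 10660 CPM and the 7 females 5418 to 9898 CPM, with a small overlap.

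The miRNAs known in fibrosis moved beside miR-21a only in part. Of 4 described as promoting fibrosis, miR-34a-5p, which p53 induces after DNA damage, was the only member that rose in C3H lung (1.37, adjusted p = 3.21e-07), C57 lung (1.13, adjusted p = 1.86e-05) and C3H heart (1.38, adjusted p = 5.92e-07) by limma, where 15.7%, 12.3% and 10.6% of all miRNAs tested passed as higher. The median of these 4 was 0.44 in lung of either strain, against -0.017 and -0.0082 over all miRNAs tested. miR-155-5p, an activator of inflammatory responses, changed by 0.49 and 0.54 in C3H and C57 lung, miR-199a-5p by 0.39 and 0.35 and miR-214-3p by 0.16 and -0.17, and none of these passed. Of 10 described as restraining fibrosis, 7 fell in C3H lung and 3 in C57 lung, with medians of -0.63 and -0.30, where 17.1% and 8.57% of all miRNAs tested passed as lower. Among the miR-29 family, which targets collagen messages, miR-29b-3p fell by 0.83 in C3H lung (adjusted p = 0.00012) and was at -0.091 in C57 lung (adjusted p = 0.704) by limma. miR-29a-3p fell by 0.58 in C57 lung (adjusted p = 0.0334) and was at -0.49 in C3H lung (adjusted p = 0.0574), and miR-29c-3p, at -0.61 and -0.60, did not pass in either. In heart, 2 of the 10 fell in C3H and none in C57, where 8.65% and 1.28% of all miRNAs passed as lower, and miR-34a-5p, at 0.47 in C57 heart (adjusted p = 0.149), did not pass there.

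Markers of other cell types were set beside the lung change. None of 5 leukocyte miRNAs passed in lung of either strain. miR-223-3p, a myeloid miRNA, changed by 0.12 in C3H (adjusted p = 0.606) and 0.41 in C57 lung (adjusted p = 0.0544), and miR-142a-3p by 0.12 (adjusted p = 0.673) and 0.36 (adjusted p = 0.198), by limma. The others did not all go the same way, with miR-142a-5p at -0.14 in C3H (adjusted p = 0.75) and 0.74 in C57 (adjusted p = 0.0568) and miR-150-5p, of mature lymphocytes, at -0.45 (adjusted p = 0.263) and -0.33 (adjusted p = 0.465) by limma. The summed leukocyte level was 3397 to 4826 CPM in C3H sham and 2552 to 7019 CPM in C3H irradiated lung, and 2393 to 9748 CPM in C57 sham and 5564 to 6829 CPM in C57 irradiated lung. Leaving out sham replicates 1 and 4, the C57 sham range ended at 5454 CPM, so that all 5 irradiated lungs lay above the other 13 sham lungs in this sum, as they did in both strands of miR-21a. In C3H lung, all 4 cardiac muscle, both endothelial and 2 of 5 epithelial miRNAs fell, against 17.1% of all miRNAs. Of 5 mesenchymal miRNAs there, 1 rose and 1 fell, and none of 4 erythrocyte or 3 neuronal miRNAs passed. In C57 lung, 2 of 3 neuronal miRNAs rose, against 12.3% of all miRNAs called higher, and none passed in the other lists. In heart, 1 of 5 leukocyte miRNAs fell in each strain, and in C3H 2 of 4 erythrocyte, 2 of 4 cardiac muscle and 1 of 5 mesenchymal miRNAs fell, while no other marker passed in either strain, against 8.65% (C3H) and 1.28% (C57) of all miRNAs called lower. The part of these lists in the change of miR-21a was not tested.

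In the 2 C57 sham lungs that stood apart, the leukocyte sum was 8303 and 9748 CPM, above the 2393 to 5454 CPM of the other 13. Their endothelial sum was 212137 and 264323 CPM, below the 325812 to 451412 CPM of the 13. miR-7b-5p was at 26.0 and 23.2 CPM in them, within the 10.8 to 33.1 CPM of the other 13 sham animals, whereas irradiated C57 lungs had 306 to 1122 CPM. miR-34a-5p did not place both with the sham lungs. It was at 1793 and 717 CPM, above the 399 to 676 CPM of the other 13, and the first of these lay within the 1001 to 2107 CPM of irradiated C57 lungs.

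**Figure D5:**
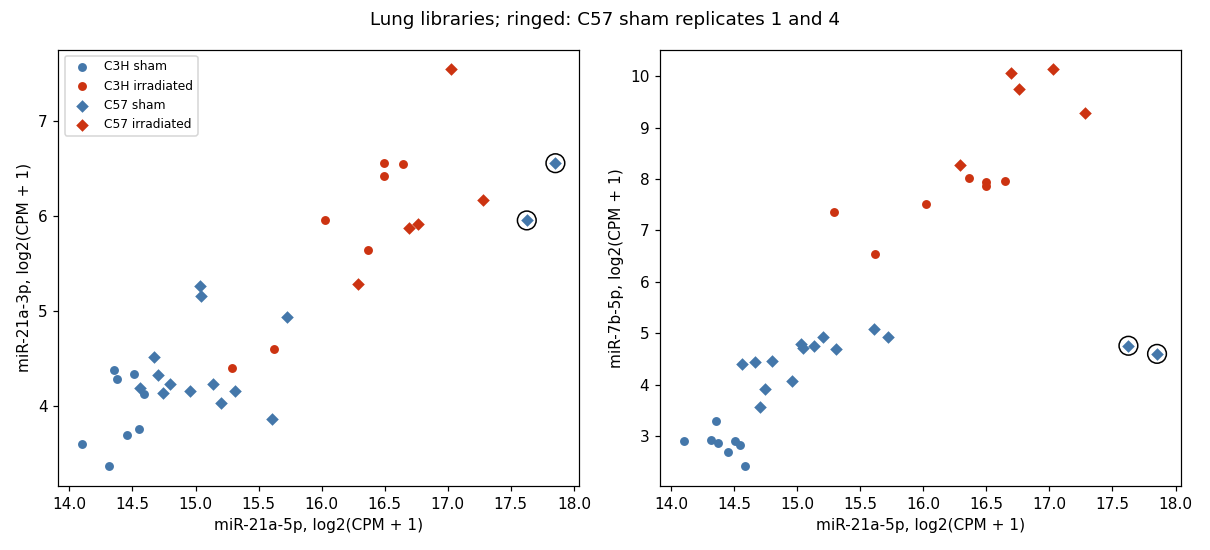
Lung libraries by miR-21a-5p (horizontal axis) against miR-21a-3p (left) and miR-7b-5p (right), all as log2(CPM + 1); colour marks irradiation, shape the strain, and rings C57 sham replicates 1 and 4. The ringed libraries exceed all irradiated lungs in miR-21a-5p and lie with the sham lungs in miR-7b-5p, at 26.0 and 23.2 CPM.

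The miRNAs most like each strand were found by Pearson's r of log2 CPM over all 35 lung libraries and over all 35 heart libraries, which share group, depth and scaling, so that r is a description. In lung, miR-21a-5p was closest to miR-21a-3p (r = 0.853), miR-135b-5p (0.852), miR-340-5p (0.844), miR-147-3p (0.812) and miR-155-5p (0.802). miR-21a-3p was closest to miR-21a-5p, miR-15b-3p (0.789), miR-34a-5p (0.754), miR-7b-5p (0.752) and miR-449c-5p (0.713). Over 33 libraries, leaving out C57 sham replicates 1 and 4, these r were 0.718 to 0.849 for miR-21a-5p and 0.682 to 0.849 for miR-21a-3p, and that of miR-21a-3p with miR-7b-5p was 0.841. With the group means removed, r over the 35 libraries was 0.709 to 0.855 for the partners of miR-21a-5p, but for miR-21a-3p it was 0.724 with miR-15b-3p, 0.471 with miR-34a-5p, 0.398 with miR-7b-5p and 0.457 with miR-449c-5p. These 35 still hold C57 sham replicates 1 and 4. No r was computed with both the group means and these 2 libraries removed, so likeness within groups is not settled by these values. In heart, miR-21a-5p was closest to miR-146b-5p (0.866), miR-10b-5p (0.854), miR-34c-5p (0.823), miR-34b-3p (0.791) and miR-34c-3p (0.725), and with the group means removed these r were 0.384 to 0.734. miR-21a-3p, at few counts in heart, reached at most 0.659, with miR-497a-5p and miR-376b-3p, followed by miR-34b-5p, miR-34b-3p and miR-212-3p. Over all libraries of a tissue, the 2 strands of miR-21a were thus more alike in lung than in heart. The 3p strand was not among the 5 miRNAs closest to miR-21a-5p in heart.

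Within groups, 11 relations were computed across animals, of which the strands' relation in C3H irradiated lung had the largest r (Pearson's r = 0.945, exact permutation p = 0.00536, adjusted p = 0.0295; Spearman's rho = 0.929, exact permutation p = 0.00675, adjusted p = 0.0742; n = 7). Without the 2 animals farthest from the median r was 0.659. In C57 sham lung, where 2 libraries form a cluster of their own, no pooled value is given for either relation that uses these lungs. Over the other 13, the strands' r was 0.076 (permutation p = 0.812, adjusted p = 0.848) and rho -0.13 (permutation p = 0.669, adjusted p = 0.817). Arms of 1 library share its depth. In C57 sham heart r was 0.61 (permutation p = 0.0176, adjusted p = 0.0485) and rho 0.604 (permutation p = 0.0199, adjusted p = 0.109; n = 15), and r was 0.499 without the 2 farthest animals. These 15 hearts pool both sexes, and within a sex, computed after seeing the data and adjusted over both sexes, the relation did not pass. It was r = 0.525 (exact permutation p = 0.182, adjusted p = 0.182) and rho = 0.762 (exact permutation p = 0.0368, adjusted p = 0.0735) in 8 males, and r = 0.602 (exact permutation p = 0.149, adjusted p = 0.182) and rho = 0.321 (exact permutation p = 0.498, adjusted p = 0.498) in 7 females. Without the 2 farthest animals r was 0.797 in males and 0.390 in females. Lung and heart miR-21a-5p of the same animal were not found to be related in C3H irradiated (r = 0.298, exact permutation p = 0.523, adjusted p = 0.821; rho = 0.393, exact permutation p = 0.396, adjusted p = 0.622; n = 7). In the 13 C57 sham animals r was 0.437 (permutation p = 0.136, adjusted p = 0.299) and rho 0.275 (permutation p = 0.364, adjusted p = 0.622), and r was -0.026 without the 2 farthest. None of the 4 remaining relations within C3H groups passed.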

How the data were processed

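Small RNA libraries (QIAseq kit) of 5 tissues were mapped and counted by the authors with the Small RNA application of BaseSpace against mm10, and each deposited table gives unnormalised counts for 1915 mature miRNAs, a column per library. Whether unique molecular identifiers were collapsed is not given in the sources used here, so counts may hold PCR copies. The floors cover counting error only. The intervals of log2 changes come from the standard errors of the limma fit across animals, and so include the spread between animals. All 167 columns matched a sample label, and no 2 libraries agreed within sampling noise. The members and the lists were chosen with earlier results of these data known. CPM was computed from the counts.

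Per tissue, miRNAs passing filterByExpr of edgeR 4.0.16 (count minimum 10, total minimum 15) were scaled with TMM and tested with voom and limma 3.58.1 in R 4.3.3, with 4 groups and Benjamini-Hochberg adjustment over all miRNAs tested. The study's quantile step was replaced by TMM because miR-21a-5p lies at the highest ranks. A call is an adjusted p under 0.05. DESeq2 1.42.0 and edgeR's quasi-likelihood test were alternatives. The pseudocount was 0.5 for the ratio and 1 for log2 CPM, and permutation tests of the ratio and of the tissue order were exact, as were those of correlations with n under 10, while correlations with n of 10 or more used 100000 resamples (NumPy 2.4.6). Methods were tested on simulated data. Replicates were separate animals. The text names the members, their seed relatives, fixed fibrosis and marker lists, and the 5 miRNAs with the highest r. Scaling by library totals shifted the median log2 change of all miRNAs by more than 0.1 (C3H lung 0.27, C57 lung 0.12, C3H heart -0.17, C3H WBC -0.34, C3H RBC -0.35), and changes are given relative to TMM.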

Additional observations from a re-analysis of the deposited data

Results flagged for a closer look

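Within groups of 4 to 10 animals, 45 sets of values were screened for a single library far from the others, and 5 were found, where chance gives about 1 in 20. In C57 irradiated lung the log2 ratio of the strands was 9.49 in replicate 5, the only female, against 10.8 to 11.1 in the other 4, and its miR-21a-3p level was 186 CPM. The same animal had the highest miR-21a-3p level of C57 irradiated RBC, at 4.40 CPM (15 counts) against at most 1.68 CPM, and the lowest log2 ratio there, at 12.7 against at least 13.8. Without it the difference in the log2 ratio of C57 lung was 0.16 rather than -0.14. That value sets 4 irradiated males against sham animals of both sexes. The mean log2 ratio of C57 sham lungs was 11.2 in males and 10.3 in females. In C3H irradiated heart, replicate 1 had 16.8 CPM of miR-21a-3p against at most 8.36 CPM in the other 6. In C3H sham RBC, replicate 1 had 23550 CPM of miR-21a-5p against at least 28337 CPM in the other 7. For neither strand did the irradiation effect differ between strains, between lung and heart or between letters by a test that passed.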

How the results depend on the processing

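Values are log2 changes of a strand (5p or 3p) or of the ratio, irradiated minus sham unless named. The rises of miR-21a-5p in C3H lung and in heart of both strains kept their direction under every alternative run. They also kept their call, except within letter A in C3H lung and under the fold minimum in heart. With the animal as a replicate block the lung minus heart difference was 0.18 (5p) and 0.58 (3p) in C3H and 0.24 and -0.12 in C57, and no call changed. Irradiated and sham animals are different animals, so no other comparison could be blocked. With edgeR, calls were lost for 5p lung C57 (0.88) and 3p heart C3H (0.70). With DESeq2, calls were lost for 5p lung C57 (0.89) and 3p heart C3H (0.66). After quantile normalisation, calls were lost for 5p lung C57 (0.85) and 3p heart sham strain difference (-0.62). With C57 males alone, calls were lost for 5p lung C57 (0.79) and 3p lung C57 (1.04). Within letter A, calls were lost for 5p lung C3H (1.17), 3p lung C3H (0.75), 5p lung C57 (0.88), 3p lung C57 (0.66), 3p heart C3H (0.53) and 3p heart C57 (1.36). Without C57 sham replicates 1 and 4, calls were lost for 5p lung sham sex difference (0.48) and C57 sham 5p lung minus RBC (0.53) and calls were gained for C57 sham 5p lung minus WBC (-0.71). With library totals alone, calls were lost for 3p heart C3H (0.72) and calls were gained for 3p heart sham sex difference (1.07), 3p brain sham sex difference (0.85), 5p WBC sham strain difference (0.89) and 3p WBC sham sex difference (1.00). With no filter, calls were lost for 3p heart C3H (0.91). With the fold minimum of the study, calls were lost for 5p heart C3H (1.10), 3p heart C3H (0.78) and 5p heart C57 (1.02). With 1 strain alone, calls were lost for 3p heart C3H (0.93).

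The direction of several results that had not passed depended on the setting. Within letter B, it turned for 5p lung strain difference (-0.11), 5p brain C57 (0.0051), 5p WBC strain difference (-0.051), 5p RBC C57 (-0.13), ratio heart C3H (-0.16), ratio RBC C57 (-0.028) and ratio RBC C3H (0.64). Without C57 sham replicates 1 and 4, it turned for 5p lung strain difference (-0.18), 3p lung strain difference (-0.087), 3p lung sham sex difference (-0.31), 3p C57 lung minus heart (0.15) and C57 sham 3p lung minus WBC (-0.20). With library totals alone, it turned for 5p heart strain difference (-0.12), 5p heart sham strain difference (-0.33), 5p heart sham sex difference (0.21), 5p WBC strain difference (-0.15) and 5p WBC sham sex difference (0.50). With C57 males alone, it turned for 5p heart strain difference (-0.00012), 5p RBC C57 (-0.040) and 3p RBC strain difference (0.015). Within letter A, it turned for 5p heart strain difference (-0.36), 5p brain C3H (-0.057), 3p brain C3H (0.19), 5p brain C57 (0.063), 5p brain strain difference (-0.12), 3p RBC C3H (0.94), 3p RBC strain difference (1.51), ratio lung C57 (0.22), ratio lung C3H (0.41), ratio brain C3H (-0.29) and ratio WBC C57 (-0.10). After quantile normalisation, it turned for 5p heart sham strain difference (-0.0044), 5p heart C57 letter B minus A (0.024), 5p brain C3H (-0.023), 5p brain C57 (0.038), 5p brain strain difference (-0.060), 5p WBC sham sex difference (0.53), 5p RBC C57 (-0.054), 3p RBC strain difference (0.055), 5p RBC sham strain difference (0.15) and 5p RBC sham sex difference (-0.10). With edgeR, it turned for 5p brain C57 (0.0094), 3p RBC C3H (0.045) and 3p RBC strain difference (0.29). With DESeq2, it turned for 5p brain C57 (0.034) and 3p RBC strain difference (0.31). With at least 10 counts in each library, it turned for 5p brain C57 (0.0026) and 5p WBC C3H (0.0063). With the letter as a covariate, it turned for 5p brain C57 (0.0073) and 3p RBC strain difference (0.0024). With 1 strain alone, it turned for 5p brain C57 (0.014). Without C3H irradiated replicates 6 and 7, it turned for 3p RBC strain difference (0.16). With a pseudocount of 10, it turned for C3H sham 3p brain minus WBC (-0.012). Leaving out 1 library at a time gave ranges that cross 0 or lose a call for 5p lung strain difference (-0.015 to 0.31), 3p lung strain difference (-0.12 to 0.48), 5p heart strain difference (-0.064 to 0.18), 3p heart C3H (0.65 to 0.86), 5p brain C57 (-0.088 to 0.11), 5p brain strain difference (-0.13 to 0.13), 3p brain C3H (-0.31 to 0.016), 5p WBC strain difference (-0.069 to 0.20), 5p WBC C3H (-0.15 to 0.074), 5p RBC C57 (-0.064 to 0.11), 3p RBC strain difference (-0.48 to 0.32), 3p RBC C3H (-0.70 to 0.021), ratio lung C57 (-0.25 to 0.16), ratio heart C3H (-0.032 to 0.44), ratio brain C3H (-0.0089 to 0.28) and ratio RBC C3H (-0.30 to 0.25). Every library was left out in turn for the ratios and for the strand changes in lung and C3H WBC. For the strand changes elsewhere, only the irradiated libraries were left out. The cause of these turns and lost calls was not tested.

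The count of miRNAs called in lung moved from 115 to 36 (fold minimum) in C3H, and from 73 to 9 (letter A) or 359 (no filter) in C57. Without C57 irradiated replicate 1 it was 46, and without C57 sham replicates 1 and 4 it was 115. In heart it moved from 60 to 19 (letter B) or, without C3H irradiated replicate 1, to 91 in C3H, and from 14 to 4 (fold minimum) in C57. Leaving out C57 sham replicates 1 and 4 or C3H irradiated replicates 6 and 7 was chosen after seeing the data. Low counts of miR-21a-3p limit what heart, brain and RBC can show.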

Other observations

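Among C57 sham animals the mean ratio of the strands was higher in males than in females in lung and RBC and lower in heart, brain and WBC. This was noticed in the data, and the differences were not tested. In lung the log2 ratio was 11.2 ± 0.41 (SD, n = 8) in males and 10.3 ± 0.39 (n = 7) in females. Without replicates 1 and 4 it was 11.1 ± 0.42 (n = 6) in male lungs. In heart it was 10.7 ± 0.33 (n = 8) in males and 11.6 ± 0.31 (n = 7) in females, where the 3p strand was at 2.77 to 5.93 CPM in males and 1.41 to 3.45 CPM in females. Female C57 sham lungs ranged from 9.79 to 10.9 and male ones from 10.6 to 11.8, so that the sexes overlapped. They overlapped in heart too, where males reached 11.4 and females began at 11.3. In the other tissues the log2 ratio was 11.2 ± 0.45 (n = 8) in males and 11.5 ± 0.60 (n = 7) in females in brain, 10.99 ± 0.35 (n = 7) and 11.5 ± 0.28 (n = 4) in WBC, and 13.7 ± 0.58 (n = 8) and 13.1 ± 0.87 (n = 7) in RBC, and the sexes overlapped in each.

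The 2 C57 sham lungs with the highest miR-21a-5p also had the highest miR-135b-5p among sham lungs of that strain, at 281 and 717 CPM against 4.43 to 88 CPM in the other 13, and miR-147-3p at 12.1 and 58.8 CPM against 0.60 to 5.78 CPM. miR-146b-5p was at 3752 and 6266 CPM against 741 to 1721 CPM.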
